A study of Mus musculus with 9 samples.

Results

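The mitochondrial genome of the mouse was followed through RNA-seq libraries of kidney. All rows of the deposited gene table whose symbol starts with mt- were taken, which gave 37 of 32593 rows, with 13 mRNAs, 2 rRNAs and 22 tRNAs. The name rule used no measured value, though the members were chosen with earlier results of these data known. The title of the series concerns chronic kidney disease with hypertension, and names the genes STING and ACSL4. There were 9 libraries, 3 in each of 3 groups, and all groups were treated with AngII, angiotensin II, the peptide hormone that raises blood pressure. The GRPR-AngII group had the genotype CDH16 Cre+/GRPRfl/fl, and the CDH16KO-AngII group had the genotype CDH16 Cre+/Tmemfl/fl. The AngII group had the genotype Tmemfl/fl with no Cre named. Cdh16 encodes a cadherin of kidney tubule epithelium, so a Cre driven from its promoter acts in tubule cells and leaves the other cells of the organ with intact floxed alleles. The labels write only Tmem, and give neither the dose nor the duration of AngII. The GRPRfl/fl genotype has no Cre-negative group here, and kidneys without AngII were not analysed here. Whether each library is a separate animal is not stated in the labels, so a p-value here reflects only how far these libraries spread, which may be technical.

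Mitochondrial DNA is a small circle without introns. It encodes subunits of respiratory complexes I, III and IV and of ATP synthase, the rRNAs of the mitochondrial ribosome, and a set of tRNAs that read its own genetic code. Each strand is copied into long transcripts that are cut at the tRNAs lying between the mRNAs, so neighbouring genes start out on the same RNA molecule. All other respiratory subunits, and the polymerase and processing enzymes, are encoded in the nucleus. The kidney is rich in mitochondria, above all in the proximal tubule and thick ascending limb, where ATP drives sodium transport.

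The members lie so close together that several share bases, which bears on how reads can be assigned to them. In the GENCODE M21 annotation of GRCm38, 9 neighbouring pairs overlapped, 3 of them on opposite strands. On the plus strand lay 28 members, 12 of them mRNAs, and on the minus strand 9, of which mt-Nd6 was the mRNA and 8 were tRNAs. The sources used here do not give whether counting used strand, so reads of overlapping genes and of a gene and its antisense partner cannot be told apart. The ends below are shown because levels of these pairs are compared further on. Capitals mark the bases shared by each pair, 43 for mt-Atp8 and mt-Atp6 (chrMT:7766-7969 and chrMT:7927-8607), 7 for mt-Nd4l and mt-Nd4 (chrMT:9877-10173 and chrMT:10167-11544), and 14 for mt-Nd5 and mt-Nd6 (chrMT:11742-13565 and chrMT:13552-14070, the second read from the minus strand).
mt-Atp8 end: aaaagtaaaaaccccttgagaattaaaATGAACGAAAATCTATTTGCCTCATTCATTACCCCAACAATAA
mt-Atp6 start: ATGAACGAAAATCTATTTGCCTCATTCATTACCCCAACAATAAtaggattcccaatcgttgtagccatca
mt-Nd4l end: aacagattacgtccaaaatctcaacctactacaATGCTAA
mt-Nd4 start: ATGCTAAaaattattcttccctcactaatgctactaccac
mt-Nd5 end: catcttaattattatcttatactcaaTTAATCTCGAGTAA
mt-Nd6 end: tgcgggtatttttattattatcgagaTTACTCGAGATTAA
Of the 13 mRNAs, 9 began with ATG, and mt-Nd1 began with GTG, mt-Nd2 with ATA, mt-Nd3 with ATT and mt-Nd5 with ATC. The transcripts of mt-Co3, mt-Nd4 and mt-Cytb, 3 of the 13, ended in a single T past the last whole codon, a stop codon that is known to be completed by polyadenylation.

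The tRNAs on which the group differences below turn most are shown next, with the anticodon in capitals and all read 5′ to 3′ from their own strand. They are mt-Tl1 (chrMT:2676-2750, leucine), which follows the rRNAs, mt-Ti (chrMT:3706-3774, isoleucine), which follows mt-Nd1, and mt-Tp (chrMT:15356-15422, proline, minus strand). The remaining 5, mt-Tw, mt-Ta, mt-Tn, mt-Tc and mt-Ty, carry tryptophan, alanine, asparagine, cysteine and tyrosine and form the cluster between mt-Nd2 and mt-Co1 (chrMT:4950-5326). The last 4 of these lie on the minus strand.
mt-Tl1: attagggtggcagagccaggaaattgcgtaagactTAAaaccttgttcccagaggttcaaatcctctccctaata
mt-Ti: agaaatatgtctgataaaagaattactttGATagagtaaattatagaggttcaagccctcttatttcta
mt-Tp: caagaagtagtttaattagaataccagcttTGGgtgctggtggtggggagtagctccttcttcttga
mt-Tw: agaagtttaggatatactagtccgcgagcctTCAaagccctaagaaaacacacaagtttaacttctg
mt-Ta: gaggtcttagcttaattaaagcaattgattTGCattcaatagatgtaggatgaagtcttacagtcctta
mt-Tn: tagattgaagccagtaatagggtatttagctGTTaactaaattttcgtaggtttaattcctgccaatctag
mt-Tc: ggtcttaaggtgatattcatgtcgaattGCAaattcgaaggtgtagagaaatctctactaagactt
mt-Ty: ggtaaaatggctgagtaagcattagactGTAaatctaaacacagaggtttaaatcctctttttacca

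Library totals were 40731748 to 60449117 counts. Markers of the proximal tubule, of the loop and distal tubule, of the collecting duct and of podocytes, endothelium and stroma were all detected, with every one of their 16, 13, 10 and 15 listed genes reaching an FPKM of 1 in 3 or more libraries. FPKM is the number of fragments scaled by transcript length and by library size. Of 14 immune and blood markers 9 reached that level. Of 11 markers in the table of adipocytes, skeletal muscle and adrenal, tissues around the kidney that are also rich in mitochondria, 1 reached it and Myh4 was at 0 in all libraries. Their summed level was 9.89 to 13.08 FPKM in GRPR-AngII, 5.94 to 13.05 FPKM in CDH16KO-AngII and 8.7 to 10.36 FPKM in AngII.

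Mitochondrial genes took 16.1% to 26.4% of all counts across the 9 libraries, and their share did not separate the genotypes. They took 19.2%, 19.1% and 24.6% in GRPR-AngII, 23.4%, 16.1% and 26.4% in CDH16KO-AngII and 21.5%, 17.2% and 17.4% in AngII. The highest and the lowest share both came from CDH16KO-AngII libraries, and the 3 groups overlapped. Library 2 was the lowest of each group, by a small margin in GRPR-AngII and AngII. The means were 20.9% ± 3.15 in GRPR-AngII, 21.98% ± 5.29 in CDH16KO-AngII and 18.7% ± 2.396 in AngII (SD, n = 3 each). The exact permutation test over the 3 groups gave p = 0.561. The difference of means was 3.29 percentage points for CDH16KO-AngII against AngII (exact two-sided permutation p = 0.4) and 2.25 points for GRPR-AngII against AngII (exact two-sided permutation p = 0.5), and 3 against 3 libraries cannot go below 0.1. Between GRPR-AngII and CDH16KO-AngII it was -1.04 points (exact two-sided permutation p = 0.9), and it turned to 1.168 points without CDH16KO-AngII library 3. In whole kidney RNA, a different number of mitochondria-rich cells and a different level of mitochondrial RNA per cell cannot be told apart.

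The mRNAs made up 97.7% to 99.003% of the mitochondrial counts, so the total hides the small RNA classes. The rRNAs took 0.202%, 0.361% and 0.269% in GRPR-AngII, 0.378%, 0.199% and 0.303% in CDH16KO-AngII and 0.152%, 0.129% and 0.193% in AngII. Every library of both Cre-positive groups lay above every AngII library. The ratio of means was 1.76 for GRPR-AngII over AngII and 1.86 for CDH16KO-AngII over AngII (exact two-sided permutation p = 0.1 for each, the smallest that 3 against 3 libraries allow; 3-group exact permutation p = 0.121). The tRNAs took 0.0814%, 0.07202% and 0.0851% in GRPR-AngII, 0.0867%, 0.0601% and 0.0849% in CDH16KO-AngII and 0.0621%, 0.0576% and 0.0687% in AngII. The GRPR-AngII libraries lay above all AngII libraries (exact two-sided permutation p = 0.1), and CDH16KO-AngII library 2 lay within the AngII range (exact two-sided permutation p = 0.3). Most mRNA library kits avoid or remove ribosomal RNA, and the sources used here do not give how the kit treated mitochondrial rRNA and the short tRNAs.

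**Figure D1:**
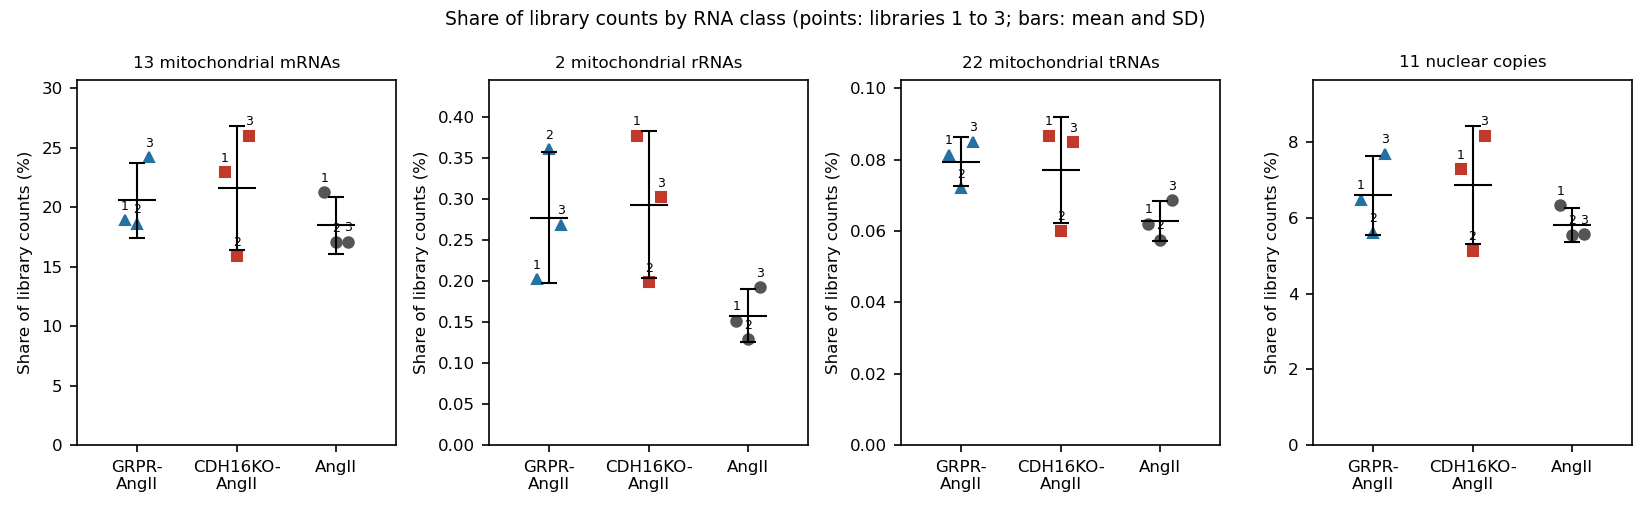
Share of library counts (y axes, percent, each from 0) taken by the mitochondrial mRNAs, rRNAs and tRNAs and by the nuclear rows that share their sequence, for GRPR-AngII, CDH16KO-AngII and AngII; points are libraries 1 to 3, bars the mean and SD. The mRNA shares of the groups overlap, and the rRNA share is at least 0.199% in both Cre-positive groups and at most 0.193% in AngII.

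Levels of single members, as FPKM and therefore per length, differed by several orders of magnitude between members. At the top of the deposited values were mt-Co1, the catalytic subunit of complex IV, and mt-Cytb, the cytochrome b of complex III. Several mRNAs, though not mt-Cytb, share sequence with nuclear copies described further on. The order of the mRNAs therefore holds only for these rows as deposited. mt-Co1 stood at 22101, 25065 and 31396 FPKM in GRPR-AngII, 30567, 21034 and 31796 FPKM in CDH16KO-AngII and 28062, 22792 and 19077 FPKM in AngII. mt-Cytb stood at 21863, 19947 and 28519.9 FPKM in GRPR-AngII, 27161, 18801 and 32666 FPKM in CDH16KO-AngII and 25474, 19560.2 and 20684 FPKM in AngII. For these and the other 11 mRNAs the groups overlapped. The lowest mRNA was mt-Nd5, a proton-pumping subunit of complex I, with 2783, 4758 and 4899.6 FPKM in GRPR-AngII, 4023, 3123 and 5099 FPKM in CDH16KO-AngII and 4773, 3061 and 2918 FPKM in AngII. GRPR-AngII library 1 and AngII library 3 were its lowest libraries together with AngII library 2 and CDH16KO-AngII library 2. Within complex I, the means over 9 libraries were 17253 FPKM for mt-Nd1, 12076 for mt-Nd2, 11945 for mt-Nd4, 6785 for mt-Nd6, 6837 for mt-Nd3 and 4602 for mt-Nd4l. The mt-Co2 and mt-Co3 subunits of complex IV averaged 19511 and 16042 FPKM, and the ATP synthase subunits mt-Atp6 and mt-Atp8 averaged 18295 and 13009.7 FPKM.

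The only mRNA of the minus strand, mt-Nd6, stood at 1.43 to 2.46 times the FPKM of mt-Nd5, whose end it overlaps on the other strand. The tRNAs ran between 0.28 FPKM for mt-Tv, the valine tRNA between the rRNAs, and 4723 FPKM for mt-Ts1, a serine tRNA on the minus strand that overlaps the 3′ end of mt-Co1 by 3 bases. Next to mt-Nd6, the glutamate tRNA mt-Te, also annotated on the minus strand, reached 2611 to 3867 FPKM. Since the strand setting is not given, the reads counted for mt-Ts1 and mt-Te cannot be assigned to a strand. The other 20 tRNAs stayed at or below 1012 FPKM, the value of mt-Tp in CDH16KO-AngII library 1. The least abundant of them rested on few reads, with 2 to 8 counts for mt-Tv, 7 to 19 for mt-Tf, 8 to 33 for mt-Tk, 7 to 26 for mt-Ts2, 7 to 36 for mt-Tl2, 10 to 28 for mt-Th, 10 to 24 for mt-Td and 17 to 38 for mt-Tt. Because mt-Tv did not reach an FPKM of 1 in 3 libraries, 36 of the 37 members were tested.

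**Figure D2:**
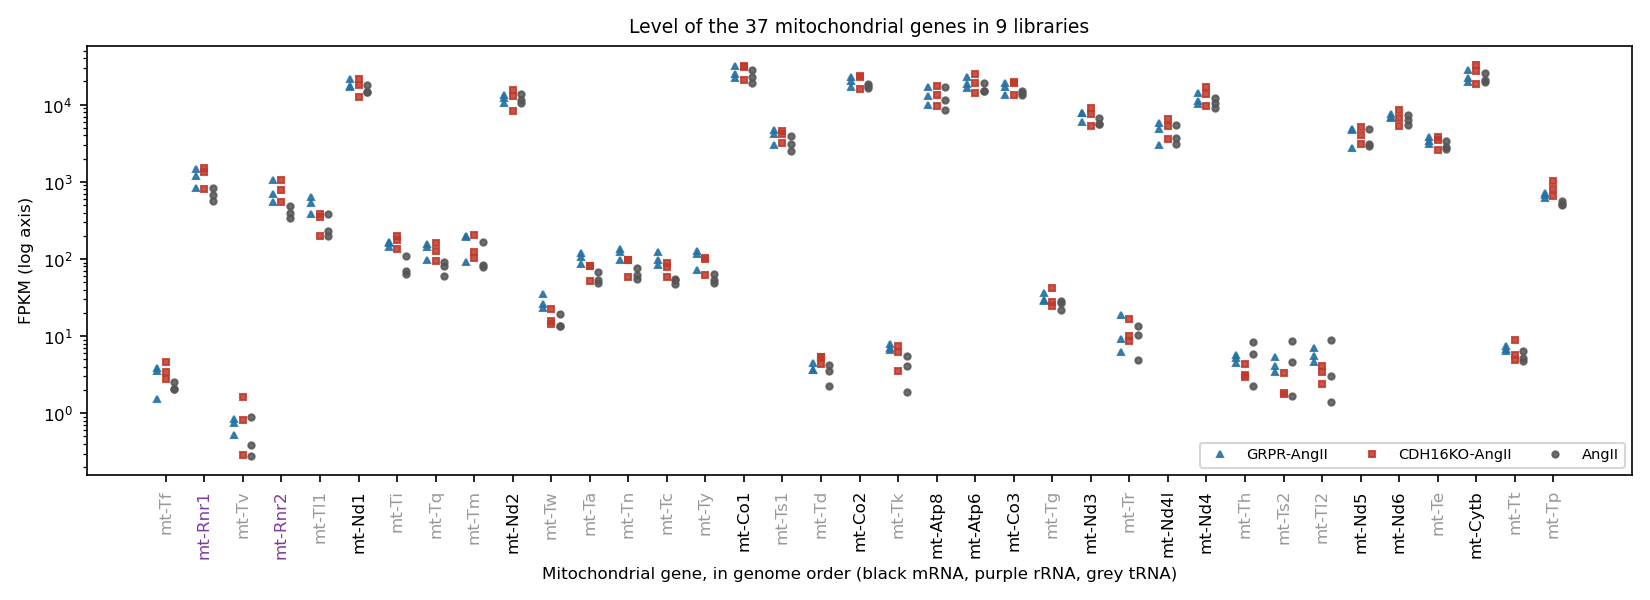
FPKM (log axis) of the 37 mitochondrial genes in genome order (x axis) in each library of GRPR-AngII, CDH16KO-AngII and AngII; each point is 1 library. The mRNAs lie between 2783 and 32667 FPKM, the rRNAs between 337 and 1509 FPKM, and the tRNAs mt-Ts1 and mt-Te between 2540.3 and 4723 FPKM, far above the other tRNAs.

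No member passed the test between any groups. With edgeR's quasi-likelihood test over 12507 genes and a Benjamini-Hochberg adjusted p under 0.05 as the threshold, 0 of 36 members were called in CDH16KO-AngII against AngII, where 0.168% of all genes were called. The counts were 0 of 36 in GRPR-AngII against AngII, where 0% of all genes were called, and 0 of 36 in GRPR-AngII against CDH16KO-AngII, where 0.144% were. At an unadjusted p under 0.05, 7 members passed in CDH16KO-AngII against AngII and 11 in GRPR-AngII against AngII, every one of them higher in the Cre-positive group. Over all genes the share that passed as higher was 4.69% and 3.5%. In GRPR-AngII against CDH16KO-AngII 2 members passed as higher, against 3.03% of all genes. DESeq2 called 3, 2 and 0 members in CDH16KO-AngII against AngII, GRPR-AngII against AngII and GRPR-AngII against CDH16KO-AngII, where it called 1.68%, 0.432% and 1.4% of all genes, and limma on log2(FPKM + 1) called 0 in each. The comparisons of GRPR-AngII and of CDH16KO-AngII with AngII share the AngII libraries, so their values stand side by side and are not independent of each other.

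**Figure D3:**
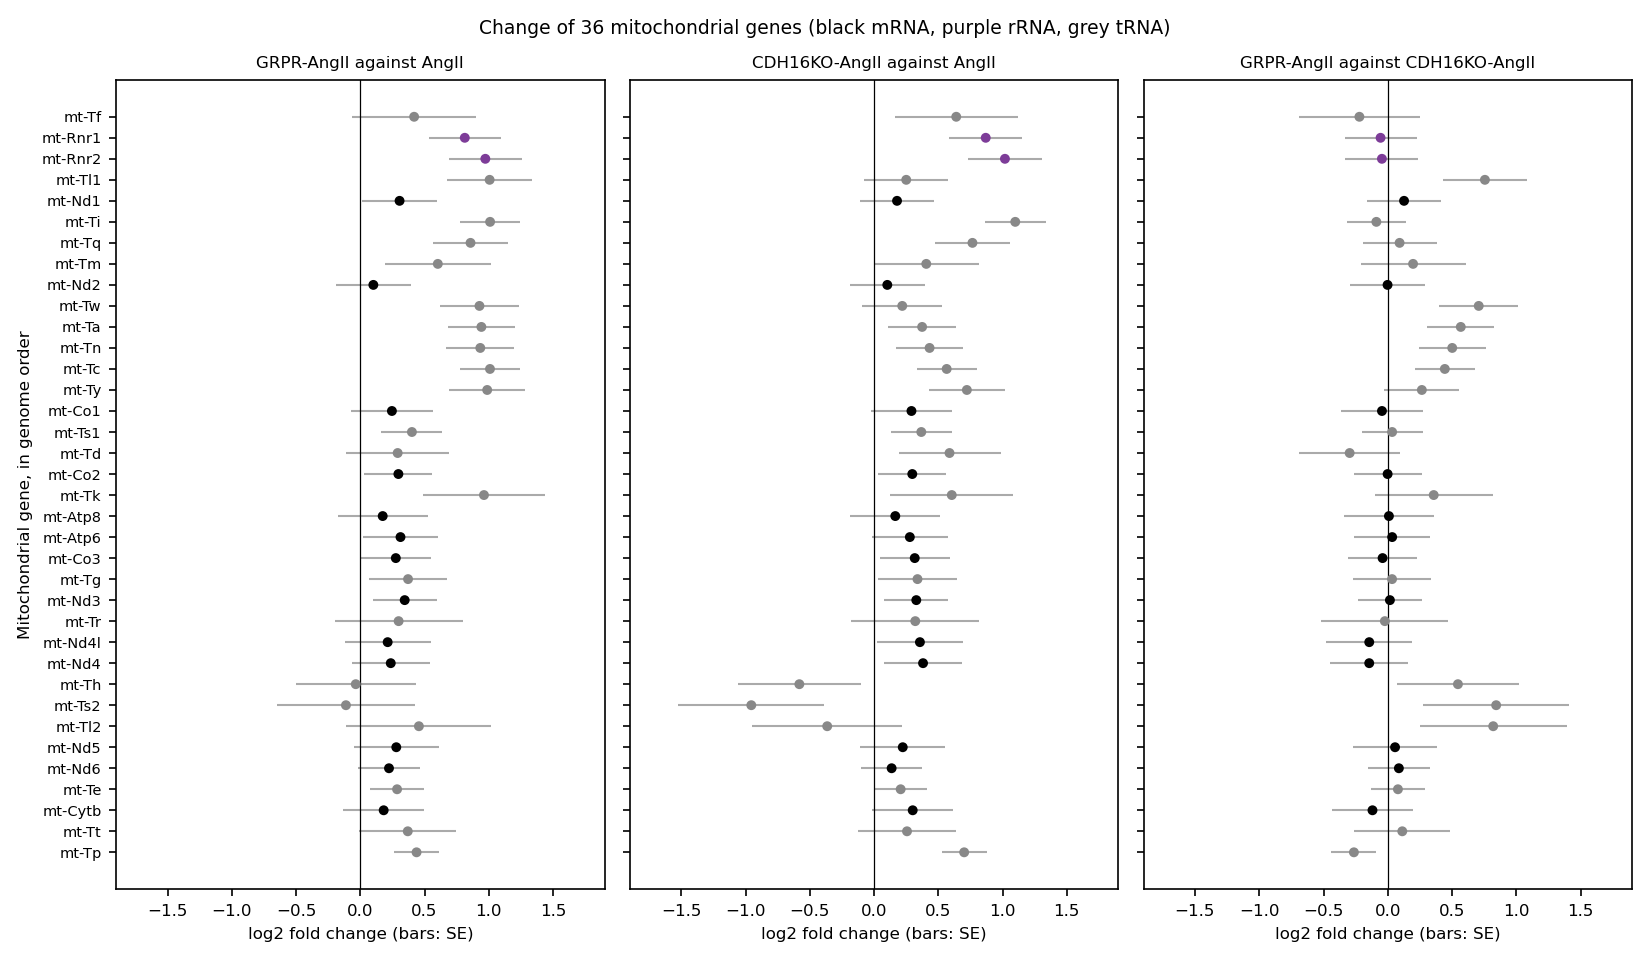
log2 fold change (x axis, bars SE of the edgeR fit) of the 36 tested members in genome order (y axis) for GRPR-AngII against AngII, CDH16KO-AngII against AngII, and GRPR-AngII against CDH16KO-AngII. In the comparisons with AngII the mRNAs lie between 0.10 and 0.38, the rRNAs between 0.81 and 1.02, and several tRNAs near 1; edgeR called none.

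The rRNAs, the RNA core of the mitochondrial ribosome, gave some of the largest fitted differences. mt-Rnr2, the 16S rRNA, stood at 549.5, 1052 and 690.3 FPKM in GRPR-AngII, 1061, 554 and 780.5 FPKM in CDH16KO-AngII and 396, 337 and 488 FPKM in AngII. All libraries of both Cre-positive groups were above all AngII libraries. mt-Rnr1, the 12S rRNA, stood at 829, 1449.7 and 1202 FPKM in GRPR-AngII, 1509, 819 and 1354 FPKM in CDH16KO-AngII and 678, 563 and 844 FPKM in AngII. GRPR-AngII library 1 and CDH16KO-AngII library 2 lay just under AngII library 3 on this scale. The log2 fold change of mt-Rnr2 was 0.97 (edgeR adjusted p = 0.66, SE 0.29) in GRPR-AngII against AngII and 1.02 (edgeR adjusted p = 0.288, SE 0.29) in CDH16KO-AngII against AngII. That of mt-Rnr1 was 0.81 (edgeR adjusted p = 0.703, SE 0.28) and 0.87 (edgeR adjusted p = 0.418, SE 0.28) in the same order of comparisons. Between GRPR-AngII and CDH16KO-AngII the changes were -0.05 (SE 0.28) and -0.06 (SE 0.28). DESeq2 called mt-Rnr2 in CDH16KO-AngII against AngII with an adjusted p of 0.0173. The adjusted p of that difference over the other settings reached 0.439, and with libraries left out in turn it lay between 0.0648 and 0.799.

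All 13 mRNAs had a positive log2 fold change in both comparisons with AngII, where 49% and 51.9% of all genes did for GRPR-AngII and CDH16KO-AngII, and none had ranges apart from the AngII libraries. In GRPR-AngII against AngII the values lay between 0.10 and 0.35 with a median of 0.25, and the median over all genes tested was -0.0063. In CDH16KO-AngII against AngII they lay between 0.10 and 0.38 with a median of 0.29, and the median over all genes was 0.01. The standard errors were 0.24 to 0.35, about as large as the changes. mt-Nd3, the small complex I subunit, gave 0.35 (edgeR adjusted p = 0.778, SE 0.25) in GRPR-AngII against AngII and 0.33 (edgeR adjusted p = 0.7, SE 0.25) in CDH16KO-AngII against AngII, the smallest adjusted p of any mRNA. mt-Nd4, a proton-pumping subunit of complex I, gave 0.24 (SE 0.30) and 0.38 (SE 0.30), and mt-Nd2 gave 0.10 (SE 0.29) and 0.10 (SE 0.29). The mRNAs share a genome, and 12 of them a strand that is copied into long transcripts, so their common sign is not 13 separate observations. The median rested on single libraries. For GRPR-AngII against AngII it was 0.07 without GRPR-AngII library 3, with 9 of 13 values positive, and 0.40 without AngII library 1. For CDH16KO-AngII against AngII it was 0.08 without CDH16KO-AngII library 3, with 9 of 13 values positive, 0.17 without AngII library 3 and 0.48 without CDH16KO-AngII library 2. Between GRPR-AngII and CDH16KO-AngII the median was -0.0013, with 6 positive and 7 negative values, and that split changed with the scaling, between 3 and 8 positive. It was 0 of 13 positive without CDH16KO-AngII library 2 or GRPR-AngII library 3, and 13 of 13 without CDH16KO-AngII library 3.

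Among the tRNAs, 19 of 21 tested members had a positive change in GRPR-AngII against AngII and 18 of 21 in CDH16KO-AngII against AngII, with medians of 0.46 and 0.37. mt-Ti, the isoleucine tRNA shown above, stood at 142, 164 and 160.0 FPKM in GRPR-AngII, 198, 133 and 176 FPKM in CDH16KO-AngII and 69.9, 64.5 and 111 FPKM in AngII. Both Cre-positive groups lay above all AngII libraries. Its log2 fold change was 1.01 (edgeR adjusted p = 0.54, SE 0.24) in GRPR-AngII against AngII and 1.10 (edgeR adjusted p = 0.146, SE 0.24) in CDH16KO-AngII against AngII, the smallest adjusted p of any member there. DESeq2 gave it an adjusted p of 0.0261 and 0.0026. Over the other settings the adjusted p of these differences reached 0.773 and 0.321, and with libraries left out in turn it reached 0.9997 and 0.551. mt-Tq, the glutamine tRNA on the opposite strand that shares 3 bases with mt-Ti, had log2 fold changes of 0.86 (SE 0.29) and 0.77 (SE 0.29).

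The 5 tRNAs between mt-Nd2 and mt-Co1 had a larger fitted change in GRPR-AngII than in CDH16KO-AngII, but the difference between these groups did not pass the test. mt-Tc, the cysteine tRNA, stood at 83.99, 122 and 96.05 FPKM in GRPR-AngII, 89.5, 58.9 and 77.6 FPKM in CDH16KO-AngII and 55.3, 53.5 and 47.9 FPKM in AngII. Each GRPR-AngII library but library 1 exceeded every other library, and the AngII libraries were the lowest 3 of the 9. mt-Ta, the alanine tRNA, stood at 86.2, 119 and 106 FPKM in GRPR-AngII, 81.8, 51.3 and 81.3 FPKM in CDH16KO-AngII and 67.3, 53.2 and 48.99 FPKM in AngII. The log2 fold changes of mt-Tw, mt-Ta, mt-Tn, mt-Tc and mt-Ty were 0.93, 0.94, 0.93, 1.01 and 0.99 in GRPR-AngII against AngII. In CDH16KO-AngII against AngII they were 0.22, 0.37, 0.43, 0.56 and 0.72. In GRPR-AngII against CDH16KO-AngII, which tests the difference itself, they were 0.71, 0.57, 0.50, 0.44 and 0.26, with edgeR adjusted p between 0.762 and 0.996. DESeq2 called mt-Tc in GRPR-AngII against AngII with an adjusted p of 0.0212, and over the other settings the adjusted p of that difference reached 0.773 and with libraries left out 0.9997.

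mt-Tl1, the leucine tRNA that follows mt-Rnr2 and in humans carries the common MELAS mutation, stood at 381, 639 and 535 FPKM in GRPR-AngII, 352, 197 and 387 FPKM in CDH16KO-AngII and 380.0, 227 and 197 FPKM in AngII. GRPR-AngII libraries 2 and 3 were the highest of the 9, and GRPR-AngII library 1 was level with CDH16KO-AngII library 3 and AngII library 1. Its log2 fold change was 1.01 (edgeR adjusted p = 0.685, SE 0.33) in GRPR-AngII against AngII, 0.25 (edgeR adjusted p = 0.822, SE 0.33) in CDH16KO-AngII against AngII and 0.76 (edgeR adjusted p = 0.762, SE 0.33) in GRPR-AngII against CDH16KO-AngII. mt-Tp, the proline tRNA of the minus strand next to the control region, stood at 714, 619 and 685 FPKM in GRPR-AngII, 1012, 655 and 817 FPKM in CDH16KO-AngII and 519, 496 and 558 FPKM in AngII, with both Cre-positive groups above AngII. Its log2 fold change was 0.44 (edgeR adjusted p = 0.732, SE 0.18) in GRPR-AngII against AngII and 0.70 (edgeR adjusted p = 0.215, SE 0.18) in CDH16KO-AngII against AngII. DESeq2 gave it an adjusted p of 0.0296 in CDH16KO-AngII against AngII. The adjusted p of that difference reached 0.384 over the other settings and 0.634 with libraries left out in turn. The negative changes in CDH16KO-AngII against AngII belonged to mt-Th (-0.58), mt-Ts2 (-0.96) and mt-Tl2 (-0.36), the histidine, serine and leucine tRNAs between mt-Nd4 and mt-Nd5. Together these 3 had 51, 87 and 60 counts in GRPR-AngII, 46, 44 and 29 in CDH16KO-AngII and 62, 24 and 86 in AngII.

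TMM-scaled CPM values, which are counts relative to library size, gave ranges that did not overlap for 11 members in GRPR-AngII against AngII, all higher. They were both rRNAs, mt-Ti, mt-Tq, mt-Tw, mt-Ta, mt-Tn, mt-Tc, mt-Ty, mt-Tk and mt-Tp, and among all genes 6.85% were higher in this sense. In CDH16KO-AngII against AngII 4 members, mt-Rnr2, mt-Ti, mt-Tc and mt-Tp, had higher ranges, against 6.65% of all genes. In GRPR-AngII against CDH16KO-AngII 5 members were higher, mt-Tw, mt-Ta, mt-Th, mt-Ts2 and mt-Tl2, against 4.66% of all genes, and 1, mt-Td, was lower, against 5.3%. No member was lower than AngII in this sense, against 7.2% of all genes for GRPR-AngII and 5.5% for CDH16KO-AngII. Neighbouring members are cut from shared transcripts, so these counts are not counts of independent genes.

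Relative to the other mitochondrial mRNAs, mt-Nd1, the complex I subunit at the start of the mRNA region, was highest in GRPR-AngII and lowest in CDH16KO-AngII. It took 10.3%, 10.6% and 10.2% in GRPR-AngII, 9.17%, 9.12% and 9.45% in CDH16KO-AngII and 9.79%, 9.84% and 10.1% in AngII of the mitochondrial mRNA counts. The 3 groups did not overlap. The means were 10.4% ± 0.211 in GRPR-AngII, 9.25% ± 0.177 in CDH16KO-AngII and 9.899% ± 0.146 in AngII (SD, n = 3 each). The exact permutation test over the 3 groups gave p = 0.00357, the smallest it can give, and each pair of groups gave an exact two-sided permutation p of 0.1. With Benjamini-Hochberg adjustment over the 14 planned measures (13 mRNA shares and the rRNA to mRNA ratio) the 3-group p was 0.05, which is not under the threshold. Over the 37 composition measures it was 0.0661. Other ratios and shares that were computed, such as those of mt-Nd1 below, stood outside this adjustment. Where only mt-Nd1, mt-Nd2, mt-Nd5, mt-Nd6 and mt-Cytb, the mRNAs that share no bases with the chromosome 1 copies described further on, formed the denominator, mt-Nd1 took 26.5%, 25.8% and 25.7% in GRPR-AngII, 23.8%, 23.8% and 23.4% in CDH16KO-AngII and 23.8%, 25.1% and 24.2% in AngII. GRPR-AngII then lay above both other groups, and CDH16KO-AngII overlapped AngII (3-group exact permutation p = 0.00714). Where the counts of the nuclear copies were added to the denominator instead, mt-Nd1 took 7.68%, 8.13% and 7.72% in GRPR-AngII, 6.96%, 6.89% and 7.19% in CDH16KO-AngII and 7.54%, 7.42% and 7.59% in AngII, and the 3 groups did not overlap (3-group exact permutation p = 0.00357). Both choices were added after the data were seen, for the mRNA with the smallest 3-group p and in the same libraries. Their p-values are unadjusted and give no separate support.

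None of the other mRNA shares gave a 3-group exact permutation p under 0.05. The ratio of means over AngII was 0.879 in CDH16KO-AngII and 0.914 in GRPR-AngII for mt-Nd2. For mt-Nd1 these ratios were 0.934 and 1.046. mt-Co1 took 23.6% ± 1.39 in GRPR-AngII, 24.03% ± 1.25 in CDH16KO-AngII and 23.4% ± 2.06 in AngII (SD, n = 3 each). mt-Nd2 took 6.94%, 8.19% and 6.89% in GRPR-AngII, 7.196%, 6.57% and 7.401% in CDH16KO-AngII and 7.95%, 7.65% and 8.48% in AngII, and its CDH16KO-AngII libraries were below all AngII libraries (exact two-sided permutation p = 0.1, 3-group exact permutation p = 0.179). mt-Cytb and mt-Nd4 were lower in every GRPR-AngII library than in every CDH16KO-AngII library, at 15.6% ± 0.931 in GRPR-AngII, 16.6% ± 0.503 in CDH16KO-AngII and 16.4% ± 0.548 in AngII for mt-Cytb and 9.49% ± 0.481 in GRPR-AngII, 10.2% ± 0.3902 in CDH16KO-AngII and 9.54% ± 0.725 in AngII for mt-Nd4 (exact two-sided permutation p = 0.1 for each pair, 3-group p 0.271 and 0.279). Summed by complex, the complex I mRNAs took 36.02% ± 1.55 in GRPR-AngII, 34.9% ± 1.04 in CDH16KO-AngII and 36.04% ± 1.47 in AngII, those of complex IV 39.2% ± 0.291 in GRPR-AngII, 39.6% ± 2.05 in CDH16KO-AngII and 38.7% ± 1.86 in AngII, and those of ATP synthase 9.19% ± 0.338 in GRPR-AngII, 8.804% ± 0.546 in CDH16KO-AngII and 8.8997% ± 0.317 in AngII (SD, n = 3 each), with 3-group exact permutation p of 0.561, 0.754 and 0.457. Per 100 mRNA counts, the rRNAs had 1.07, 1.94 and 1.11 in GRPR-AngII, 1.65, 1.25 and 1.16 in CDH16KO-AngII and 0.714, 0.757 and 1.13 in AngII. CDH16KO-AngII lay above all AngII libraries, and GRPR-AngII overlapped AngII (3-group exact permutation p = 0.25).

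Set against the mRNA counts, which removes the library scaling, the sum over the cluster between mt-Nd2 and mt-Co1 was highest in GRPR-AngII and lowest in AngII, but not every member had that order. Per 1000000 mitochondrial mRNA counts, its 5 tRNAs summed to 159, 233 and 158 in GRPR-AngII, 139, 127 and 120.1 in CDH16KO-AngII and 106, 114 and 107 in AngII. No groups overlapped, and GRPR-AngII library 2 was far above the rest. The sum was chosen after its values were seen and is given with no test. Singly, mt-Tn, the asparagine tRNA, had 44.02, 60.6 and 42.9 in GRPR-AngII, 36.6, 31.9 and 31.5 in CDH16KO-AngII and 30.4, 31.03 and 27.9 in AngII on this scale, with the groups apart (3-group exact permutation p = 0.00357, adjusted 0.0661 over the 37 measures). mt-Ta and mt-Tc were higher in GRPR-AngII than in both other groups (3-group exact permutation p = 0.0107 for each, adjusted 0.0991). mt-Ty averaged 41.1 ± 11.7 in GRPR-AngII, 32.99 ± 2.25 in CDH16KO-AngII and 24.2 ± 1.11 in AngII, with GRPR-AngII overlapping CDH16KO-AngII (3-group exact permutation p = 0.0464, adjusted 0.245). mt-Tw averaged 11.3 ± 3.23 in GRPR-AngII, 6.62 ± 0.925 in CDH16KO-AngII and 6.997 ± 2.13 in AngII (SD, n = 3 each), with both Cre-positive groups overlapping AngII (3-group exact permutation p = 0.075, adjusted 0.308). mt-Tl1 had 184, 305 and 199 in GRPR-AngII, 139, 112 and 134 in CDH16KO-AngII and 159.9, 121 and 106 in AngII on it, highest in all GRPR-AngII libraries (3-group exact permutation p = 0.0357, adjusted 0.22). mt-Ti had 62.99, 72.2 and 54.8 in GRPR-AngII, 72.04, 69.7 and 55.9 in CDH16KO-AngII and 27.1, 31.5 and 54.7 in AngII, with AngII lowest, though by a small margin for AngII library 3 (3-group exact permutation p = 0.0643, adjusted 0.297). No tRNA passed the adjustment.

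**Figure D4:**
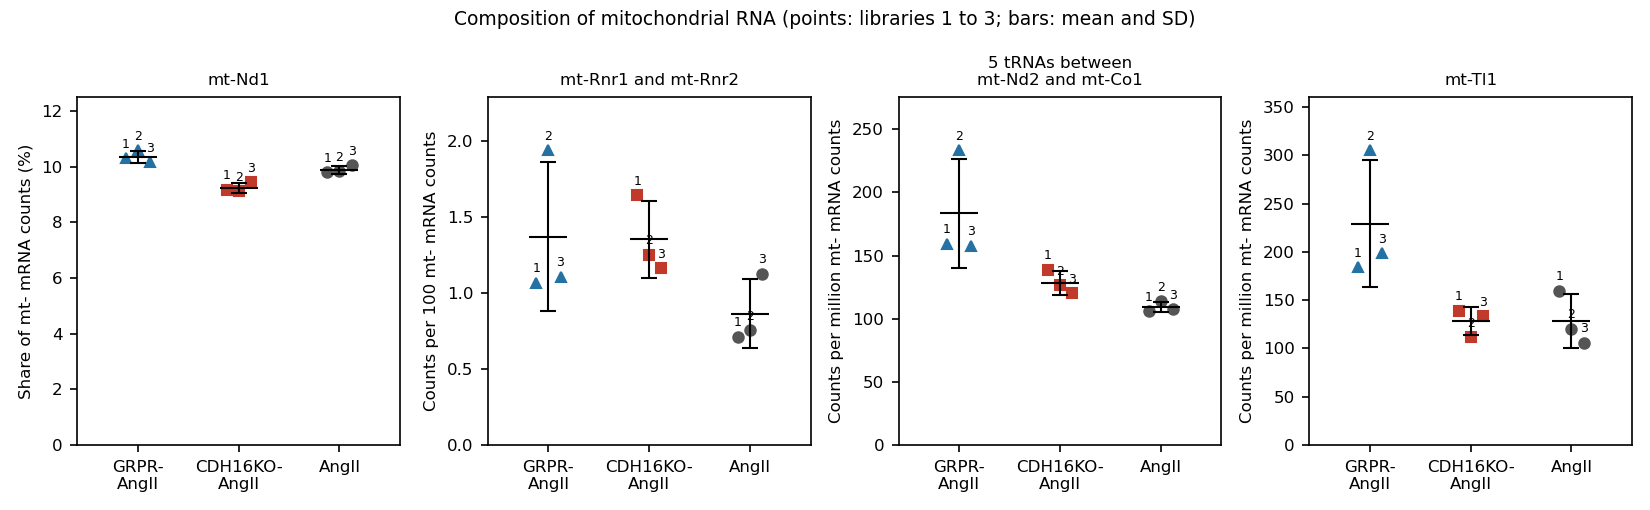
Composition of mitochondrial RNA in GRPR-AngII, CDH16KO-AngII and AngII; y axes, each from 0, give mt-Nd1 as percent of mitochondrial mRNA counts, the rRNAs per 100 mRNA counts, and the 5 tRNAs between mt-Nd2 and mt-Co1 and mt-Tl1 in counts per 1000000 mRNA counts; points are libraries 1 to 3, bars the mean and SD. mt-Nd1 lies at 10.2% to 10.6%, 9.12% to 9.45% and 9.79% to 10.1% in the groups in that order.

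Some mitochondrial mRNAs have near-identical copies in the nuclear genome, inserted from mitochondrial DNA, and these rows carried large counts. Sequence search found 11 nuclear rows that share at least 95% identity with a member over at least 50% of their length. Of these, 7 lie side by side on the minus strand of chr1:24611535-24616197 (GRCm38), a block of 4663 bases. Gm28661 copies mt-Co2, Gm10925 copies mt-Atp6, Gm28437 copies mt-Co3, Gm10222 copies mt-Nd4l, Gm28439 copies the first 876 bases of mt-Nd4, Gm29216 copies bases 1054 to 1545 of mt-Co1, and Gm28438 copies mt-Nd3. Over the aligned bases 5 of them had no difference from the member, and Gm28438 had 1, T3C, with the base of mt-Nd3 first and positions counted from its 5′ end. The starts of mt-Nd3 and of its copy are shown with that base in capitals.
mt-Nd3 at the difference: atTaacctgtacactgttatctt
Gm28438 at the difference: atCaacctgtacactgttatctt
Counts of the copies were close to those of the members where they share their whole length. Gm28661 had 0.945 to 0.989 times the counts of mt-Co2, Gm10925 had 1.01 to 1.03 times those of mt-Atp6, and Gm28437 had 0.947 to 0.987 times those of mt-Co3. The remaining whole copies, Gm28438 and Gm10222, which were named after their values were seen, had 0.973 to 0.992 and 0.939 to 1.001 times the counts of mt-Nd3 and mt-Nd4l. Copies on chromosomes 2 and 13 with more differences had far fewer, for example 0.0026 to 0.0038 times mt-Co2 for Gm13341. Reads from either place cannot be told apart at identical bases, and the sources used here do not say whether a read was counted in both rows or divided between them.

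Together the 11 copies took 6.49%, 5.62% and 7.71% in GRPR-AngII, 7.297%, 5.14% and 8.18% in CDH16KO-AngII and 6.34%, 5.56% and 5.57% in AngII of all counts. With them, the mitochondrial sequence took 21.3% to 34.6% of all counts, and the groups still overlapped (3-group exact permutation p = 0.554). None of the copies tested was called. The log2 fold change of Gm28661 was 0.27 (SE 0.26) in GRPR-AngII against AngII and 0.28 (SE 0.26) in CDH16KO-AngII against AngII, beside 0.30 (SE 0.26) and 0.30 (SE 0.26) for mt-Co2. The levels and changes of mt-Co1, mt-Co2, mt-Co3, mt-Atp6, mt-Nd3, mt-Nd4l and mt-Nd4 are uncertain to that extent. Gm10925 also holds 43 bases, or 21.1%, of mt-Atp8, and nuclear sequence outside annotated transcripts was not searched.

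The copies that cover only a stretch of their member gave a view along the message. GRPR-AngII library 1 and AngII library 3 lay at an extreme of it. AngII library 1 lay at the opposite extreme in the ratios below, except that of mt-Nd4l to mt-Nd4, where GRPR-AngII library 2 did. Gm29216, which covers the 3′ end of mt-Co1, had a ratio of its FPKM to that of mt-Co1 of 0.677, 0.5299 and 0.566 in GRPR-AngII, 0.545, 0.572 and 0.589 in CDH16KO-AngII and 0.513, 0.5896 and 0.7101 in AngII. GRPR-AngII library 1 and AngII library 3 were the highest. Gm28439, which covers the 5′ part of mt-Nd4, had a ratio to mt-Nd4 of 0.334, 0.484 and 0.444 in GRPR-AngII, 0.414, 0.422 and 0.407 in CDH16KO-AngII and 0.495, 0.454 and 0.342 in AngII. The same libraries were the lowest. They were also lowest in the FPKM ratio of mt-Nd4l to mt-Nd4, at 0.267, 0.479 and 0.409 in GRPR-AngII, 0.388, 0.3796 and 0.382 in CDH16KO-AngII and 0.442, 0.416 and 0.301 in AngII, and of mt-Atp8 to mt-Atp6, at 0.5298, 0.791 and 0.7399 in GRPR-AngII, 0.696, 0.674 and 0.717 in CDH16KO-AngII and 0.896, 0.755 and 0.5702 in AngII. These are the pairs whose shared bases are printed above, and mt-Nd4l and mt-Atp8 are the upstream genes. Per 1000000 mRNA counts, mt-Ts1 was also highest in these libraries, at 2099.8 in GRPR-AngII library 1 and 1964 in AngII library 3, against 983 to 1674 in the other 7. The 2 libraries belong to different groups, and the CDH16KO-AngII libraries varied least in each ratio. Without GRPR-AngII library 1 the mRNA median of GRPR-AngII against AngII was 0.31, and without AngII library 3 it was 0.20. The part of these libraries in the results above was not tested.

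**Figure D5:**
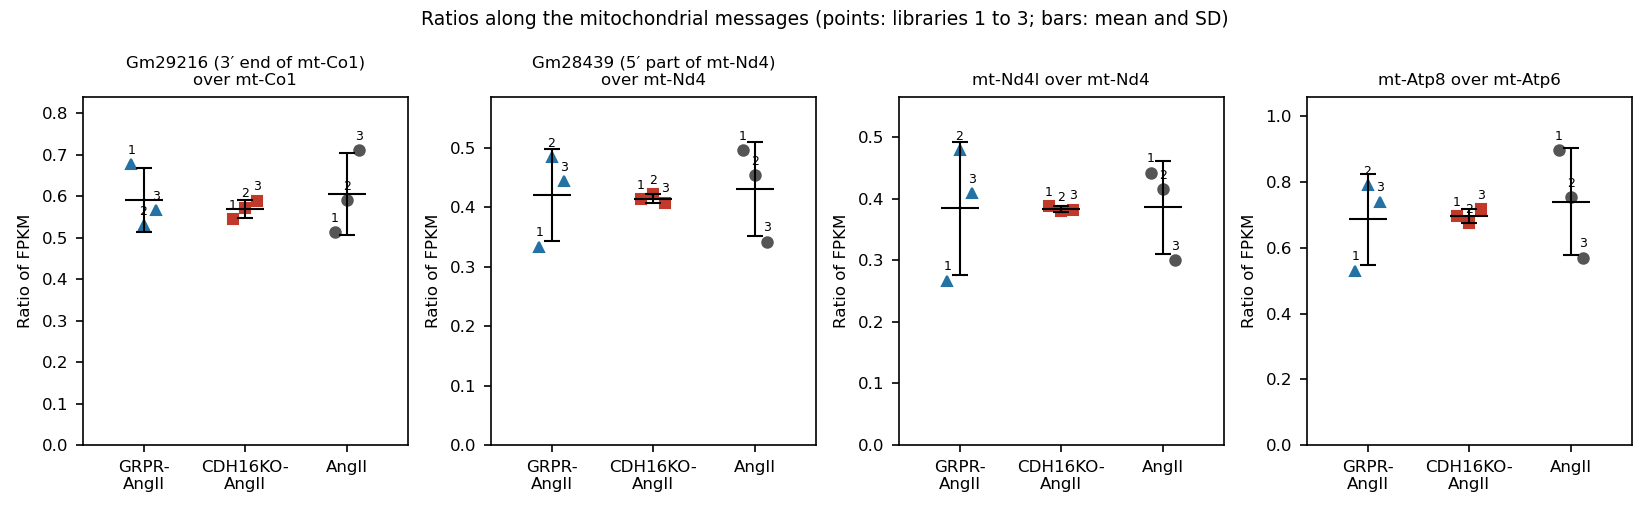
FPKM ratios along mitochondrial messages (y axes from 0) in GRPR-AngII, CDH16KO-AngII and AngII; points are libraries 1 to 3, bars the mean and SD. GRPR-AngII library 1 and AngII library 3 have the highest ratio of the 3′ copy to mt-Co1 (0.677 and 0.7101) and the lowest ratios in the other plots.

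No nuclear gene of mitochondrial gene expression passed edgeR's test in any comparison. Over all 15 lists, which also hold respiratory subunits, stress genes and cell type markers, 231 genes were tested. Of these, edgeR called 0 in GRPR-AngII against AngII, 0 in CDH16KO-AngII against AngII and 0 in GRPR-AngII against CDH16KO-AngII, and 10, 19 and 9 had an unadjusted p under 0.05. These are 4.33%, 8.23% and 3.9% of the 231, against 6.74%, 8.45% and 6.24% of all genes. DESeq2 called 2 (Trpm6, Gdf15), 4 (Pvalb, Ndufa12, Trpm6, Slc8a1) and 1 (Slc22a12), and limma called 0 in each. The DESeq2 calls are 0.866%, 1.73% and 0.433% of the 231, against 0.432%, 1.68% and 1.4% of all genes. For the 41 genes of mitochondrial transcription and RNA processing the median log2 fold change was 0.03 in GRPR-AngII against AngII and -0.05 in CDH16KO-AngII against AngII. For the 18 genes of mitochondrial DNA replication and nucleotide supply the medians were 0.05 and 0.10, and for the 13 translation factors 0.05 and 0.03. Tfb2m, the factor that melts mitochondrial promoters for the polymerase, averaged 21.7 CPM in CDH16KO-AngII against 27.1 CPM in AngII (log2 fold change -0.32, SE 0.16, edgeR adjusted p = 0.615). Fastk, the founding member of a family of mitochondrial RNA regulators, averaged 164 CPM in GRPR-AngII against 130.5 CPM in AngII, with the groups apart (log2 fold change 0.33, SE 0.16, edgeR adjusted p = 0.732).

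The nuclear-coded subunits that join the mitochondrial ones in the respiratory complexes and ATP synthase had medians nearer 0 than the mitochondrial mRNAs in the comparisons with AngII, a difference that was not tested. Over 81 such genes the median log2 fold change was 0.11 in GRPR-AngII against AngII, with 58 positive values. It was 0.0083 in CDH16KO-AngII against AngII, with 41 positive, and 0.13 in GRPR-AngII against CDH16KO-AngII, with 72 positive, where 47.4% of all genes were positive. By complex, the medians in GRPR-AngII against AngII and then CDH16KO-AngII against AngII were 0.12 and 0.05 for 36 genes of complex I, -0.17 and -0.29 for 4 genes of complex II, and 0.11 and -0.12 for 9 genes of complex III. They were 0.09 and 0.05 for 14 genes of complex IV and 0.13 and -0.03 for 18 genes of ATP synthase. Ndufa12, an accessory subunit of complex I, averaged 82.5 CPM ± 2.78 in CDH16KO-AngII against 137 CPM ± 14.8 in AngII (SD, n = 3 each), and the groups did not overlap. The fitted log2 value was -0.74 (SE 0.15, edgeR adjusted p = 0.13), and DESeq2 called it in this comparison. In GRPR-AngII Ndufa12 averaged 97.0 CPM ± 17.2, also below all AngII libraries (log2 fold change -0.50, SE 0.15, edgeR adjusted p = 0.683). Sdha, the catalytic subunit of complex II, which has no mitochondria-encoded subunit, averaged 219 CPM in CDH16KO-AngII against 433 CPM in AngII, with overlapping groups (fitted log2 value -0.99, SE 0.31, edgeR adjusted p = 0.403). Among 14 genes of mitochondrial and integrated stress the medians were 0.13 and -0.13, with 9 and 6 positive values. The smallest p in CDH16KO-AngII against AngII belonged to higher genes, Atf4 (log2 fold change 0.36, SE 0.12, edgeR adjusted p = 0.436), with the groups apart, and Ddit3 (0.44, SE 0.18, edgeR adjusted p = 0.562). Ddit3 was also higher in GRPR-AngII against AngII, with the groups apart (0.50, SE 0.18, edgeR adjusted p = 0.732). Gdf15, a secreted stress signal, averaged 25.8 CPM in GRPR-AngII against 9.75 CPM in AngII (log2 fold change 1.40, SE 0.31, edgeR adjusted p = 0.54), with the groups apart, and DESeq2 called it.

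Cell type markers were set beside these values, since cell types of the kidney differ in their content of mitochondria. The summed level of 16 proximal tubule markers was 34087 to 46350 FPKM in GRPR-AngII, 26010 to 34231 FPKM in CDH16KO-AngII and 30437 to 39077 FPKM in AngII. The median log2 fold change of these markers was 0.05 in GRPR-AngII against AngII and -0.25 in CDH16KO-AngII against AngII. For 13 loop and distal tubule markers the medians were -0.21 and 0.23, and for 10 collecting duct markers -0.15 and -0.16. For 15 podocyte, endothelial and stromal markers they were 0.04 and 0.04, and for 9 immune and blood markers -0.05 and -0.21. Fabp4, listed with the adipocyte genes and the tested 1 of the surrounding tissues, had 0.38 and 0.24. The other adipocyte genes listed, Adipoq, Plin1, Ucp1 and Cidea, did not reach the level for testing. Whether the Fabp4 values reflect adipocytes was not tested. In GRPR-AngII against CDH16KO-AngII the medians were 0.29 for proximal tubule, -0.375 for loop and distal tubule and 0.13 for collecting duct markers. They were -0.018 for podocyte, endothelial and stromal markers and 0.50 for immune and blood markers. The summed loop and distal level was 732 to 1036 FPKM in GRPR-AngII, 977 to 1235 FPKM in CDH16KO-AngII and 874 to 1329 FPKM in AngII. The part of cell composition in the mitochondrial values was not tested.

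Over the 9 libraries, the mitochondrial share of counts was set against 5 library properties. It went with the mean level of the proximal tubule markers at Pearson's r = -0.707 (permutation p = 0.0351, adjusted 0.175) and Spearman's rho = -0.633 (permutation p = 0.0764, adjusted 0.242). Levels were scaled on counts outside the mt- rows, so those rows did not enter them. The nuclear copies, at 5.14% to 8.18% of all counts, stayed in that scaling, and their part in these relations was not tested. Without the 2 libraries farthest from the median, CDH16KO-AngII 1 and CDH16KO-AngII 3, r was -0.232, so the relation rested on those libraries. It was not examined within groups. For the nuclear-coded respiratory subunits r was -0.507 (permutation p = 0.162, adjusted 0.404; rho -0.6, permutation p = 0.0969, adjusted 0.242), and -0.579 without the 2 farthest libraries. For the loop and distal markers r was 0.213 and rho 0.117 (permutation p = 0.582 and 0.774, adjusted 0.935 and 0.967), with r = 0.422 without the 2 farthest. For the library total r was -0.0326 and rho -0.283 (permutation p = 0.935 and 0.463, adjusted 0.935 and 0.771), with r = -0.396 without the 2 farthest. For the number of genes at an FPKM of 1 r was -0.125 and rho -0.0167 (permutation p = 0.753 and 0.981, adjusted 0.935 and 0.981), with r = 0.716 without AngII library 3 and GRPR-AngII library 3. No relation passed the adjustment over the 5.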

How the data were processed

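RNA-seq of 9 kidney libraries was used, 3 per group by the sample titles. Total RNA was made into libraries with a SMARTER mRNA-Seq kit, per the labels' protocols, and the submitters' processing notes name GRCm38 and mm10. The sources used here do not give the aligner, counting program or strand setting. The FPKM values were deposited by the authors, rounded to 2 decimals. The counts deposited by the authors were whole numbers and were handled like rounded expected counts, since the value 4 was more frequent than 3 and 5 in every library. The fragment total implied by the FPKM was 1.19 to 1.22 times the column total.

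edgeR 4.0.16 (quasi-likelihood test, R 4.3.3) was run on the counts with TMM scaling, all 9 libraries in 1 fit and no block, over the 12507 genes that reached an FPKM of 1 in 3 or more libraries. Adjustment (Benjamini-Hochberg, 0.05) was over all genes tested. Totals were 40731748 to 60449117 counts per library. Single values were compared by exact permutation over libraries. Alternatives were other scalings and filters, DESeq2 1.42.0, limma 3.58.1 on log2(FPKM + 1) and log2(FPKM + 0.1), a replicate block, pairs of groups and each library left out. Correlations used 100000 permutations. Nuclear copies were sought with BLAST+ 2.17.0 among GENCODE M21 transcripts, matched to rows by gene identifier. Replicates differed far beyond sampling noise (chi-square per gene 54.001 to 248), so none was a copy. By plan, naming was open to all members and to the 5 most abundant nuclear copies. From each list of respiratory, mitochondrial maintenance, stress and marker genes it was open to those called or of the 2 smallest p per comparison. The text names only some of these, and further nuclear copies. The members and lists were chosen with earlier results of these data known. Alternatives with the nuclear copies, and tRNA counts per mRNA counts, were added after seeing the data.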

Additional observations from a re-analysis of the deposited data

How the results depend on the processing

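No member was called by edgeR under any scaling or filter tried or with any library left out, nor by limma. DESeq2 called 3 members in CDH16KO-AngII against AngII (mt-Rnr2, log2 fold change 1.01; mt-Ti, 1.10; mt-Tp, 0.70) and 2 in GRPR-AngII against AngII (mt-Ti and mt-Tc, 1.01 each), and the cause was not tested. The share difference between GRPR-AngII and CDH16KO-AngII was -1.04 points, lay between -3.98 and 1.17 points with libraries left out, and reversed to 1.168 points without CDH16KO-AngII library 3. Median changes moved beyond the replicate spread for the replication list, between -0.0040 (without AngII library 1) and 0.165 in CDH16KO-AngII against AngII and between -0.0093 and 0.124 in GRPR-AngII against AngII. They did so for the transcription list, between -0.066 and -0.0054 in CDH16KO-AngII against AngII and between -0.014 and 0.0769 in GRPR-AngII against CDH16KO-AngII. Among fold changes of members, none called by edgeR, the sign differed in 18 of 756 values over all settings in GRPR-AngII against AngII, 9 of 756 in CDH16KO-AngII against AngII and 84 of 756 in GRPR-AngII against CDH16KO-AngII. Same-numbered libraries correlated at -0.122 to 0.298, over 0.1 in 6 of 9 pairs. Differently numbered ones correlated at -0.326 to 0.235, over 0.1 in 1 of 18 pairs. The pairs over 0.1 were those numbered 2 and 3, at 0.134 to 0.298, and the pairs numbered 1 lay at -0.122 to 0.0906. Since not every pair was over 0.1, the main fit held no block. Whether same-numbered libraries share a batch is not given in the labels and was not tested. A replicate block gave 0 called members in each comparison and mRNA medians of 0.23, 0.25 and 0.03 in the order of comparisons above. Over all genes DESeq2 called 54, 210 and 175 in the order of comparisons above, against 0, 21 and 18 by edgeR, which called 41 without the filter in the last of them and 9 from those groups alone. With libraries left out edgeR called 0 to 2, 0 to 42 and 0 to 50. Counts of under 40 per library limit mt-Tv, mt-Tf, mt-Td, mt-Tk, mt-Th, mt-Ts2, mt-Tl2 and mt-Tt.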
